A study of Homo sapiens with 6 samples.

Results

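The MYC-MAX-MXD network is a set of transcription factors that share a basic helix-loop-helix leucine zipper and bind DNA as pairs. The 10 genes described here, *MYC*, *MYCN*, *MYCL*, *MAX*, *MXD3*, *MXD4*, *MXI1*, *MNT*, *MGA* and *MLX*, were taken from a fixed list of symbols. Each was found once in the merged read-count table, among 58037 gene identifiers in the tables of the single libraries. All 10 had at least 10 reads over the 6 libraries and were among the 23304 genes tested. The members were not chosen by their levels, although they were listed with earlier results of these data known.

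RNA-seq was carried out on HEK293T cells, a human embryonic kidney line that carries adenoviral E1 genes and the SV40 large T antigen. 3 libraries came from cells expressing a control hairpin (sh-control) and 3 were labelled as expressing a hairpin against *RREB1* (sh-*RREB1*), a zinc finger transcription factor. All cells were grown in DMEM with fetal bovine serum and stably carried a short-hairpin RNA, with 1 hairpin sequence against *RREB1*. The comparison asks which genes differ when *RREB1* is targeted. No source used here says that the 3 libraries of a group came from separate cultures, so the p-values measure only the spread between these libraries.

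MAX is the hub of the network. It pairs with MYC, MYCN or MYCL, and these pairs bind the E-box CACGTG and activate genes of ribosome production, metabolism and cell growth. MAX also pairs with the MXD proteins, with MXI1 (the product of *MXI1* is also called MXD2), with MNT and with MGA, and these pairs bind the same sites and repress transcription. MXD proteins, MXI1 and MNT recruit the SIN3 corepressor with its histone deacetylases, and MGA is the DNA-binding scaffold of the Polycomb complex PRC1.6. MLX is a parallel hub that pairs with the glucose-sensing factors MLXIP and MLXIPL and with some MXD proteins and MNT. *MYC* is amplified or overexpressed in many tumours, and *MYCN* is best known from neuroblastoma.

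The E-box is the sequence that members of the network bind, and 3 of the members hold it near their own start. In the RefSeq promoter table of GRCh38.p14, which gives 250 bases before to 50 bases after each annotated start, 9 of the 10 members had a window, and *MYC* had none. Together with the partners *MXD1*, *MLXIP* and *MLXIPL* there were 17 windows, of which 3 held CACGTG, compared to 7.26% of all 35116 windows. Counted by gene, 8.77% of all 27305 symbols had a window with it. The GC content of the 3 windows was 71% to 76%, and that of the others 55% to 75.3%. The letters are their own reverse complement, so both strands were searched at once, and no other motif was searched. The 3 stretches are printed 5′ to 3′ on the strand of the gene, with the E-box in capitals.
*MXD4*, chr4:2262312-2262359, minus strand: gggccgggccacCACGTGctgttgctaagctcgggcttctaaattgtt
*MNT*, chr17:2401218-2401283, minus strand: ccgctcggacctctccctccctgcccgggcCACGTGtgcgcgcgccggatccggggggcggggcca
*MLX*, chr17:42567020-42567085, plus strand: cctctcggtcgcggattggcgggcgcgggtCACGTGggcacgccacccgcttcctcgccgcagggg
The first base of the E-box lay 238 bases before the start of *MXD4*, 193 before that of *MNT* and 50 before that of *MLX*. These are matches of letters, and binding was not measured in these libraries. Of these 3 genes, *MXD4* and *MNT* rose in the sh-*RREB1*-labelled libraries and *MLX* did not pass the test (values below).

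The gene targeted by the hairpin was examined first. *RREB1* (ENSG00000124782) was at 27.1, 25.2 and 26.6 CPM in replicates 1, 2 and 3 of sh-control and at 23.7, 24.6 and 23.2 CPM in the sh-*RREB1*-labelled libraries. CPM is reads on a gene per 1000000 reads on all genes, scaled by edgeR's TMM method. All 3 sh-*RREB1*-labelled libraries were below the controls, but the log2 fold change was -0.14 (95% interval -0.43 to 0.15, edgeR's quasi-likelihood test, adjusted p = 0.486). The groups are therefore called by their labels throughout.

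2 libraries stood apart. In sh-*RREB1* replicate 3, 52.1% of aligned reads mapped to several positions, compared to 3.66% to 7.63% in the other libraries, and 12257054 reads were on genes, compared to 23362197 to 33044061. GC-rich genes were low in sh-control replicate 1. Among the top decile of exonic GC content (59.7% or more) of 14332 expressed genes, its median deviation from the mean of all libraries was -1.30 on the log2 scale, compared to -0.35 and -0.11 in the other controls and 0.49 to 0.85 in the sh-*RREB1*-labelled libraries. The median log2 fold change was 1.11 in that decile and -0.23 in the decile with the lowest GC content, compared to 0.01 over all genes tested. The fit was therefore repeated with each library's trend on GC content and exonic length removed (the GC-corrected fit), and its values stand beside those of the counts as deposited. In the GC-corrected fit, *RREB1* had a log2 fold change of -0.36 (interval -0.63 to -0.10, adjusted p = 0.0534, edgeR). All 3 sh-*RREB1*-labelled libraries were again below the controls. The log2 fold change of *RREB1* was negative in all 23 alternatives in processing, and its adjusted p was below 0.05 in 2 of them. The hairpin and the GC trend cannot be told apart for a gene that follows the trend.

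Levels between genes were compared as RPKM, CPM per 1000 bases of exon. The length was that of all annotated exons of a gene joined, such as 6109 bases for *MYC* and 20074 for *MGA*. It was not that of the transcripts expressed, so the order below depends on the annotation. In sh-control, *MGA* was highest at 24.2 ± 1.6 RPKM (SD, n = 3), followed by *MLX* at 15.6 ± 1.72, *MXI1* at 7.36 ± 0.469, *MAX* at 5.50 ± 0.750 and *MYC* at 2.88 ± 0.164. *MXD4* at 2.02 ± 0.865, *MYCL* at 1.21 ± 0.189, *MNT* at 0.451 ± 0.0831 and *MXD3* at 0.412 ± 0.185 came next, and *MYCN* was lowest at 0.104 ± 0.0349. The ranges of *MXD4* and *MYCL* overlapped, as did those of *MNT* and *MXD3*, and no other neighbours in this order did. In the sh-*RREB1*-labelled libraries, the mean of *MAX* stood above that of *MXI1* without overlap, and the mean of *MNT* above that of *MYCL* with overlapping ranges (1.08 to 1.23 RPKM and 1.05 to 1.17 RPKM). The rest of the order of means was the same, although *MGA* then overlapped *MLX*, and *MXI1* overlapped *MYC*.

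Of the 10 members, *MYC*, *MNT*, *MXD4* and *MAX* rose at an adjusted p below 0.05, and no member fell. Over all genes tested, 10.8% were higher and 8.81% were lower by that rule. *MYC* and *MNT* also passed the stricter rule of an adjusted p below 0.01 with an absolute log2 fold change above 1, which 3.41% of all genes passed in either direction and 2.71% with a higher level. The median log2 fold change of the members was 0.33. In the GC-corrected fit, *MYC* and *MAX* rose and *MYCL* fell at an adjusted p below 0.05 (10.4% of all genes were higher and 11.7% lower), no member passed the stricter rule (3.02% of all genes), and the median of the members was 0.10. The plot of CPM by library shows each value, and that of fold changes sets both fits side by side.

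**Figure D1:**
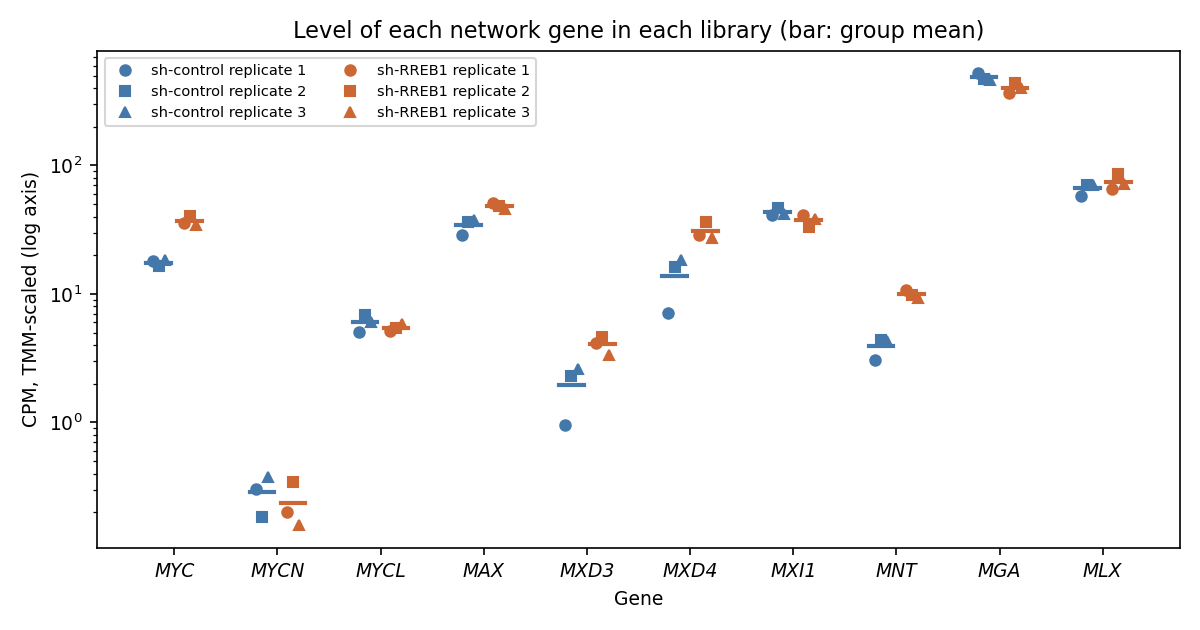
Level of each of the 10 network genes in each library, in TMM-scaled CPM on a log axis, with blue for sh-control, orange for sh-*RREB1*, a symbol for each replicate and a bar for the group mean. *MYC*, *MAX*, *MXD3*, *MXD4* and *MNT* sit higher in all 3 sh-*RREB1* libraries than in any control, and sh-control replicate 1 is the lowest control for *MXD3*, *MXD4*, *MNT* and *MAX*.

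Among the activators, *MYC* alone rose. *MYC* (ENSG00000136997, chromosome 8) was at 18.1, 16.4 and 18.2 CPM in replicates 1, 2 and 3 of sh-control (415, 446 and 585 reads) and at 35.5, 40.4 and 34.2 CPM in the sh-*RREB1*-labelled libraries (882, 1058 and 431 reads). The 3 controls lay close together, and every sh-*RREB1*-labelled library was above all of them. The mean was 17.6 ± 1.0 CPM in sh-control and 36.7 ± 3.30 CPM in sh-*RREB1* (SD, n = 3), a 2.09-fold difference with a log2 fold change of 1.06 (95% interval 0.75 to 1.38, adjusted p = 0.00349, edgeR). In the GC-corrected fit the log2 fold change was 0.89 (0.64 to 1.13, adjusted p = 0.000327). The exonic GC content of *MYC*, 51.7%, is below that of the GC-rich decile but above the median of all genes tested, 47.1%. Leaving out sh-control replicate 1 gave a log2 fold change of 1.05 and leaving out sh-*RREB1* replicate 3 gave 1.11, and the adjusted p was below 0.05 in all 23 alternatives. With 3 libraries a group, the exact two-sided permutation test gave p = 0.1 for *MYC*, the smallest it can give. It gave the same value for *MAX*, *MXD3*, *MXD4*, *MXI1*, *MNT* and *MGA*, so it does not set *MYC* apart. In bulk RNA, a difference in all cells and one in some of them cannot be told apart.

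*MYCL* encodes L-MYC. Its level was 5.05, 6.92 and 6.05 CPM in sh-control and at 5.20, 5.43 and 5.79 CPM in the sh-*RREB1*-labelled libraries, and these ranges overlapped. Its log2 fold change was -0.14 (95% interval -0.56 to 0.28, adjusted p = 0.646), and -0.51 (-0.84 to -0.18, adjusted p = 0.0310) in the GC-corrected fit, in which the groups no longer overlapped. With 1 library left out, that GC-corrected adjusted p of *MYCL* was below 0.05 in 2 of 6 fits, without sh-control replicate 1 or 3, and 0.0598 to 0.120 in the others.

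*MYCN* was close to absent, with 7, 5 and 12 reads in the controls compared to 5, 9 and 2 in the sh-*RREB1*-labelled libraries, or 0.159 to 0.374 CPM in all. Its log2 fold change of -0.23 had an interval from -1.37 to 0.92 (adjusted p = 0.796), and in the GC-corrected fit it was -0.74 (-1.88 to 0.40, adjusted p = 0.344), so a difference was not detectable at this depth. *MYC* made up 68.7% ± 3.80 of the summed RPKM of the 3 MYC family genes in sh-control and 83.5% ± 1.25 in sh-*RREB1* (SD, n = 3).

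*MAX* (ENSG00000125952) lies on the minus strand of chromosome 14 from 65006174 to 65102695 of GRCh38. Its level was 29.0, 36.4 and 37.7 CPM in sh-control (667, 990 and 1210 reads) and at 51.4, 48.2 and 46.0 CPM in the sh-*RREB1*-labelled libraries (1275, 1260 and 580 reads). The groups did not overlap, and the lowest value was that of sh-control replicate 1. *MAX* rose by a log2 fold change of 0.50 (95% interval 0.18 to 0.81, adjusted p = 0.0388), a 1.41-fold difference, and by 0.48 (0.24 to 0.71, adjusted p = 0.00856) in the GC-corrected fit. The adjusted p of *MAX* was above 0.05 whenever 1 library was left out (0.0651 to 0.114), including sh-control replicate 1 (log2 fold change 0.36, adjusted p = 0.0695) and sh-*RREB1* replicate 3 (0.53, adjusted p = 0.102). With the GC correction it was below 0.05 in all 6 such fits. Exons of *MAX* overlap those of *FNTB* on the opposite strand, but at most 0.855% of the reads at its exons were on that strand.

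Of the antagonists, *MNT* and *MXD4* rose at an adjusted p below 0.05, and none fell. *MNT*, *MXD4* and *MXD3*, with an exonic GC content of 58.4% to 60.1%, were higher in all 3 sh-*RREB1*-labelled libraries than in any control, while *MXI1* and *MGA*, at 47.6% and 42.4%, were lower in all 3. Neither *MXI1* nor *MGA* passed the test in either fit. Of the 10 members, 5 were higher and 2 lower without overlap, compared to 21.1% and 20.0% of all genes tested. The 2 that were lower are therefore close to the share of all genes.

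*MNT* (ENSG00000070444) encodes the broadly expressed repressor of the network and lies on the minus strand of chromosome 17 from 2384073 to 2401104. Its level was 3.09, 4.38 and 4.30 CPM in sh-control (71, 119 and 138 reads) and at 10.7, 9.86 and 9.36 CPM in the sh-*RREB1*-labelled libraries (266, 258 and 118 reads). The smallest value in sh-*RREB1* was above the largest control value. *MNT* had the largest log2 fold change of the 10 members, 1.34 (95% interval 0.91 to 1.78, adjusted p = 0.00437), a 2.54-fold difference. In the GC-corrected fit it was 0.48 (0.10 to 0.86, adjusted p = 0.0711) and the groups overlapped. Without sh-control replicate 1 it was 1.17 (adjusted p = 0.00135), and without sh-*RREB1* replicate 3 it was 1.39 (adjusted p = 0.0269).

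*MXD4* (ENSG00000123933), one of the MXD repressors, lies on the minus strand of chromosome 4 from 2247432 to 2262109. Its level was 7.09, 16.3 and 18.2 CPM in sh-control (163, 442 and 585 reads) and at 28.5, 36.6 and 27.1 CPM in the sh-*RREB1*-labelled libraries (708, 958 and 342 reads). The groups did not overlap, and sh-control replicate 1 lay well below the other controls. *MXD4* rose by a log2 fold change of 1.15 (95% interval 0.44 to 1.86, adjusted p = 0.0344), a 2.21-fold difference, with 0.28 (0.02 to 0.55, adjusted p = 0.116) in the GC-corrected fit. Without sh-control replicate 1 it was 0.80 (adjusted p = 0.00642), and without sh-*RREB1* replicate 3 it was 1.23 (adjusted p = 0.0818). The adjusted p of *MXD4* was also above 0.05 without sh-control replicate 2 or sh-*RREB1* replicate 1 or 2 (0.0672 to 0.105).

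*MXD3* stood at 0.957, 2.28 and 2.62 CPM in sh-control and at 4.15, 4.66 and 3.33 CPM in the sh-*RREB1*-labelled libraries, from 22 to 122 reads a library. The groups did not overlap, but the log2 fold change of 1.04 (95% interval 0.29 to 1.80) did not pass the test (adjusted p = 0.0575), nor did that of 0.38 in the GC-corrected fit (adjusted p = 0.191). With sh-control replicate 1 left out, *MXD3* had a log2 fold change of 0.71 (adjusted p = 0.0326), with sh-control replicate 3 left out it was 1.28 (adjusted p = 0.0448), and without sh-*RREB1* replicate 3 it was 1.16 (adjusted p = 0.104). Its value also depends on strand. Of the reads at its exons, 97.3% to 99.0% were on the opposite strand, which carries *PRELID1*, whose exons overlap those of *MXD3* by 1148 bases. At the median share of opposite-strand reads of coding genes in each library, 3.60 to 15.6 of the reads counted on *MXD3* would come from that strand. Exons of *RAB24* on the same strand overlap by 926 bases. The count of *MXD3* is therefore uncertain.

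*MXI1* stood at 41.5, 46.6 and 42.3 CPM in sh-control and at 40.9, 33.5 and 38.5 CPM in the sh-*RREB1*-labelled libraries. The groups were separated by less than 1 CPM. For *MXI1* the log2 fold change was -0.21 (95% interval -0.51 to 0.09, adjusted p = 0.304), and -0.16 (-0.41 to 0.09) in the GC-corrected fit, in which the groups overlapped.

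*MGA* was the most abundant member, at 521, 474 and 460 CPM in sh-control and at 369, 440 and 398 CPM in the sh-*RREB1*-labelled libraries. All 3 controls were above all 3 sh-*RREB1*-labelled libraries, from 5019 to 14762 reads a library. The log2 fold change of -0.27 (95% interval -0.51 to -0.02) did not pass the test (adjusted p = 0.115), and it was -0.12 (-0.31 to 0.07, adjusted p = 0.361) in the GC-corrected fit.

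**Figure D2:**
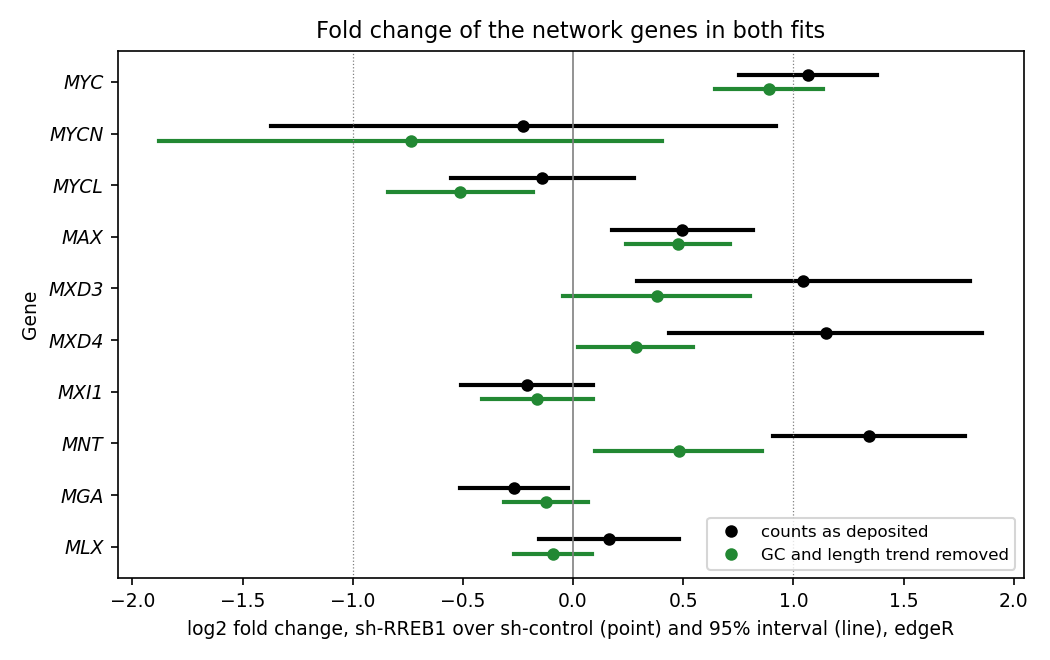
Log2 fold change of each network gene, sh-*RREB1* over sh-control (point), with its 95% interval (line), for the counts as deposited (black) and after removal of the trend on GC content and exonic length (green), with dotted lines at -1 and 1. The 2 fits nearly coincide for *MAX* (0.50 and 0.48) and are close for *MYC* (1.06 and 0.89), while *MNT* moves from 1.34 to 0.48 and *MXD4* from 1.15 to 0.28.

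The balance between activators and antagonists was described as sums of RPKM, without a test. *MYC*, *MYCN* and *MYCL* together were at 4.08, 4.15 and 4.34 RPKM in sh-control and at 6.94, 7.84 and 6.82 RPKM in the sh-*RREB1*-labelled libraries. The 5 antagonists *MXD3*, *MXD4*, *MXI1*, *MNT* and *MGA* together were at 34.4 ± 0.554 RPKM in sh-control and 32.9 ± 1.87 RPKM in sh-*RREB1* (SD, n = 3), and their ranges overlapped. *MGA* made up 70.2% ± 4.22 of that sum in sh-control and 60.9% ± 2.32 in sh-*RREB1*. The ratio of the MYC family to the 5 antagonists was 0.118, 0.119 and 0.128 in sh-control and 0.220, 0.224 and 0.213 in the sh-*RREB1*-labelled libraries, and the groups stood well apart. Without *MGA*, the antagonists were at 10.2 ± 1.42 RPKM in sh-control and 12.8 ± 0.529 RPKM in sh-*RREB1*. The MXD gene *MXD1* is not in the member list and was left out of all these sums. It was at 2.66 ± 0.150 RPKM in sh-control and 2.93 ± 0.463 RPKM in sh-*RREB1*. The ratio of the MYC family to *MAX* was 0.771 ± 0.0949 in sh-control and 0.930 ± 0.0867 in sh-*RREB1*, with overlapping ranges. These are ratios of mRNA levels in RPKM from counts as deposited, so the GC trend is part of them. They also depend on the annotated exonic lengths, which may differ from those of the transcripts expressed.

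**Figure D3:**
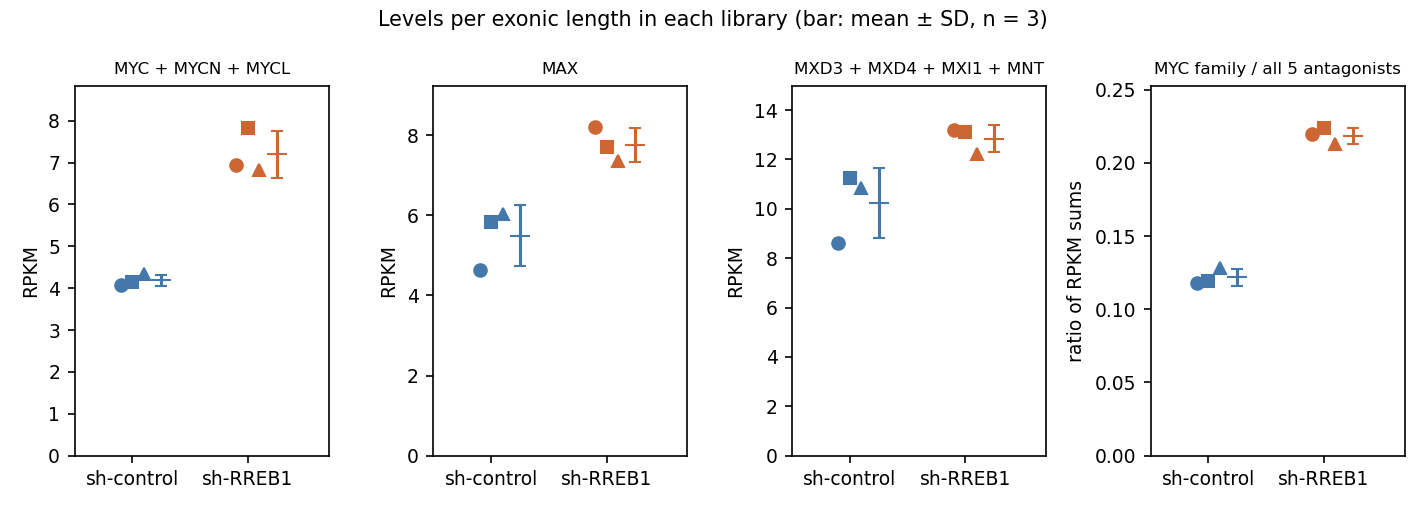
Levels in each library as RPKM for the summed MYC family, *MAX* and the antagonists without *MGA*. The right panel gives the ratio of the MYC family to the 5 antagonists of the member list, without *MXD1*. Symbols mark replicates 1 (circle), 2 (square) and 3 (triangle), and a cross with whiskers marks the mean ± SD (n = 3). The ratio lies at 0.118 to 0.128 in sh-control and at 0.213 to 0.224 in sh-*RREB1*, and the MYC family sums of the groups do not overlap.

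*MLX*, the parallel hub, lies on the plus strand of chromosome 17 from 42567072 to 42573239. Its level was 57.9, 70.8 and 70.3 CPM in sh-control and at 65.3, 85.6 and 71.9 CPM in the sh-*RREB1*-labelled libraries, and the ranges overlapped. For *MLX* the log2 fold change was 0.16 (95% interval -0.16 to 0.48, adjusted p = 0.462) and changed sign to -0.09 (-0.27 to 0.08, adjusted p = 0.468) in the GC-corrected fit. From 20.2% to 37.9% of the reads at its exons were on the opposite strand, which carries *PSMC3IP*.

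Of the 3 partners outside the member list, *MLXIP* alone passed the test. *MLXIP*, which encodes MondoA, stood at 9.79, 11.6 and 13.6 CPM in sh-control and at 18.6, 23.0 and 17.9 CPM in the sh-*RREB1*-labelled libraries, without overlap. It rose by a log2 fold change of 0.77 (95% interval 0.36 to 1.18, adjusted p = 0.0211), which was 0.23 (adjusted p = 0.150) in the GC-corrected fit. *MLXIPL*, which encodes ChREBP, was at 0.522 to 1.80 CPM with a log2 fold change of 0.64 (adjusted p = 0.242) that changed sign to -0.39 (adjusted p = 0.309) in the GC-corrected fit. *MXD1*, the founding MXD gene, was at 15.7 to 21.6 CPM over the 6 libraries, and its log2 fold change of 0.14 did not pass the test (adjusted p = 0.614). The GC-corrected value of *MXD1* was 0.32 (95% interval 0.07 to 0.58), with groups that did not overlap, and did not pass either (adjusted p = 0.0708). Of 5 listed targets of the MLX-Mondo pairs, 3 were tested. None passed, while 2 rose in the GC-corrected fit, in which 10.4% of all genes were higher at an adjusted p below 0.05. *TXNIP*, the best known of them, had a log2 fold change of 0.43 (adjusted p = 0.0626), and 0.65 (adjusted p = 0.00439) in the GC-corrected fit. The other that passed there, *ARRDC4*, had log2 fold changes of 0.14 (adjusted p = 0.454) and 0.34 (adjusted p = 0.0143).

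Of the other helix-loop-helix zipper factors that bind E-boxes, 11 of 12 were tested, with the 3 partners among them. 4 rose and 1 fell at an adjusted p below 0.05, compared to 10.8% and 8.81% of all genes. In the GC-corrected fit 3 rose and 2 fell, compared to 10.4% and 11.7% of all genes. Their median log2 fold change was 0.64, compared to -0.02 in the GC-corrected fit. *SREBF1*, a regulator of lipid synthesis, rose by a log2 fold change of 1.50 (adjusted p = 0.00934), *USF2* by 1.47 (adjusted p = 0.00704) and *TFAP4*, an E-box factor that is itself a known MYC target, by 1.42 (adjusted p = 0.00356). The GC-corrected log2 fold changes of these genes were 0.46, 0.46 and 0.81, and their adjusted p stayed below 0.05 (0.0372, 0.00824 and 0.00100). *MITF*, the melanocyte factor, fell by 0.59 on the log2 scale (adjusted p = 0.0336), and by 0.36 (adjusted p = 0.0272) in the GC-corrected fit. *TFE3* fell in the GC-corrected fit alone, by 0.47 (adjusted p = 0.0163). Its log2 fold change for the counts as deposited was 0.20 (adjusted p = 0.500).

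Genes whose products act with MYC or set its stability moved in both directions. Of 20 tested, 4 rose and 5 fell at an adjusted p below 0.05, compared to 10.8% and 8.81% of all genes. Their median was 0.18. In the GC-corrected fit 3 rose and 6 fell (10.4% and 11.7% of all genes), and the median changed sign to -0.14. *AURKA*, the mitotic kinase that also stabilises MYCN protein, stood at 257, 268 and 262 CPM in sh-control and at 121, 140 and 125 CPM in the sh-*RREB1*-labelled libraries. It fell by 1.03 on the log2 scale (adjusted p = 0.00174), and by 0.94 (adjusted p = 2.97e-05) in the GC-corrected fit. *CIP2A*, which protects MYC protein from dephosphorylation, fell by 0.71 (adjusted p = 0.0185), and *USP28*, a deubiquitinase of MYC, fell by 0.59 (adjusted p = 0.00590). *TRRAP*, the scaffold of histone acetyltransferases that MYC recruits, rose by 0.81 (adjusted p = 0.0104), and *HCFC1*, a chromatin cofactor, by 1.05 (adjusted p = 0.00870). The rise of *HCFC1* was absent in the GC-corrected fit (log2 fold change 0.00, 95% interval -0.28 to 0.28), while that of *TRRAP* (0.52, adjusted p = 0.0396) still passed.

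More corepressor genes of the MXD proteins fell than rose. Of 12 genes of the SIN3 list, 4 fell and 1 rose at an adjusted p below 0.05, compared to 8.81% and 10.8% of all genes. With the GC correction 3 fell and 1 rose, compared to 11.7% and 10.4% of all genes. The median was -0.30, or -0.19 in the GC-corrected fit, compared to -0.03 for all genes in that fit. The median exonic GC content of the list was 44.4%, compared to 47.1% over all genes tested. The histone chaperone gene *RBBP7* stood at 762, 737 and 697 CPM in sh-control and at 470, 486 and 485 CPM in the sh-*RREB1*-labelled libraries, and fell by 0.61 on the log2 scale (adjusted p = 0.00520). *ING2* fell by 0.74 (adjusted p = 0.0155) and the deacetylase gene *HDAC1* by 0.57 (adjusted p = 0.0239), and these 3 also passed in the GC-corrected fit. *SIN3B*, a scaffold of the complex, rose by 0.93 (adjusted p = 0.0176), and by 0.40 (adjusted p = 0.00937) in the GC-corrected fit. Of the 10 genes of the PRC1.6 complex of MGA, 1 fell and none rose, which is near the 8.81% of all genes that fell. That gene was *CBX3*, which fell by 0.44 (adjusted p = 0.0324), with an adjusted p of 0.0530 in the GC-corrected fit. With the GC correction 1 rose and 1 fell, near the 10.4% and 11.7% of all genes. In that fit *TFDP1* rose by 0.33 (adjusted p = 0.0308) and *RING1* fell by 0.58 (adjusted p = 0.00792), and the median of the list was 0.05, compared to -0.07 for the counts as deposited.

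Of 50 textbook genes activated by MYC, 13 rose and 2 fell at an adjusted p below 0.05, and 35 did not pass. By that rule 10.8% of all genes rose and 8.81% fell. The median log2 fold change of the 50 genes was 0.19, and 0.18 in the GC-corrected fit. There 13 rose and 3 fell, compared to 10.4% and 11.7% of all genes. *SLC7A5*, a transporter of large neutral amino acids, stood at 5.96, 10.0 and 8.95 CPM in sh-control and at 46.4, 45.5 and 34.9 CPM in the sh-*RREB1*-labelled libraries, and rose by a log2 fold change of 2.35 (adjusted p = 0.00161), or 1.37 (adjusted p = 0.000161) in the GC-corrected fit. *BOP1*, a ribosome biogenesis factor, rose by 2.18 (adjusted p = 0.0223) and *SLC19A1*, the folate carrier, by 2.16 (adjusted p = 0.00435), and both passed in the GC-corrected fit with 0.90 and 1.14. *GNL3* and *NOP58*, of the nucleolus, fell by 0.46 (adjusted p = 0.0169) and 0.43 (adjusted p = 0.0149), and neither passed in the GC-corrected fit. *CCND2*, which encodes cyclin D2 and was singled out after its values were seen, stood at 60.9, 59.1 and 64.1 CPM in sh-control and at 215, 220 and 220 CPM in the sh-*RREB1*-labelled libraries. Its log2 fold change was 1.83 (adjusted p = 0.000139), and 1.87 in the GC-corrected fit.

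Of 10 genes known to be repressed by MYC, 1 rose at an adjusted p below 0.05 and none fell, compared to 10.8% and 8.81% of all genes. That gene was *CEBPA*, and its log2 fold change of 1.29 (adjusted p = 0.0176) changed sign to -0.13 (adjusted p = 0.658) in the GC-corrected fit. The median of the list changed sign from 0.30 to -0.25. With the GC correction 1 gene rose and 3 fell, compared to 10.4% and 11.7% of all genes. In the GC-corrected fit *CDKN1B* rose by 0.50 (adjusted p = 0.0380), *CDKN1C* fell by 2.21 (adjusted p = 0.00343), *NDRG2* by 0.66 (adjusted p = 0.00166) and *GADD45B* by 0.55 (adjusted p = 0.0247). For the counts as deposited the log2 fold changes of these 4 genes were 0.30, -0.50, -0.24 and 0.30, and none passed. Of the neighbours of *MYC* and *MYCN*, 3 of 9 were tested, and 2 fell at an adjusted p below 0.05, compared to 8.81% of all genes. *DDX1* and *NBAS*, which lie beside *MYCN* on chromosome 2, fell by 0.55 (adjusted p = 0.0168) and 0.50 (adjusted p = 0.0228) on the log2 scale, and neither passed in the GC-corrected fit. The long noncoding *PVT1*, beside *MYC*, was at 12.1 to 13.3 CPM in sh-control and at 14.4 to 16.2 CPM in the sh-*RREB1*-labelled libraries. Its log2 fold change of 0.27 did not pass the test (adjusted p = 0.225).

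**Figure D4:**
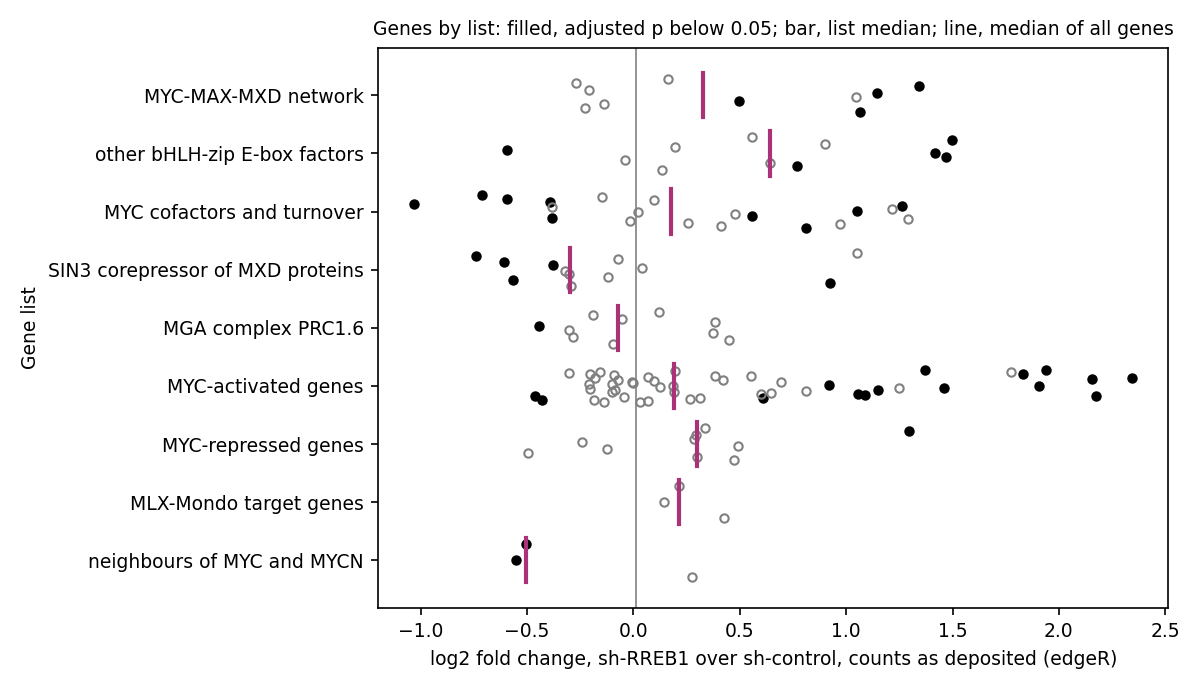
Log2 fold change, sh-*RREB1* over sh-control for the counts as deposited, of each tested gene of the network and of 8 lists around it, filled where the adjusted p (edgeR) was below 0.05, with a bar at the list's median and a line at the median of all genes tested (0.01). The members have a median of 0.33 and the other E-box factors 0.64, while the SIN3 corepressor genes have -0.30.

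The genes most like *MYC* were found by Pearson's correlation of log2 CPM over the 6 libraries, among 9373 genes that averaged 10 CPM or more. They were *NRP1* (r = 0.999), *CNDP2* (0.999), *SLC7A1* (0.998), *MAML1* (0.998) and *CCDC86* (0.997). The points share the contrast between the groups, and 291 genes had r above 0.95, so these values are a description. *SLC7A1*, a transporter of cationic amino acids, stood at 47.2, 40.3 and 47.0 CPM in sh-control and at 84.5, 97.1 and 82.4 CPM in the sh-*RREB1*-labelled libraries.

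The cell type was examined with marker genes. Of 10 markers of HEK293 cells, 9 averaged 1 CPM or more, and their sum was 514 to 570 CPM in sh-control and 839 to 944 CPM in the sh-*RREB1*-labelled libraries. Summed markers of fibroblasts were at 4.13 to 4.96 CPM in sh-control and 3.57 to 17.0 CPM in sh-*RREB1*, where *COL1A2* was at 3.94 CPM in replicate 2 and had 0 reads in all controls. Markers of leukocytes summed to 0.783 to 1.37 CPM over all libraries, with *CD3E* at 0 reads, and those of endothelium to 3.52 to 3.79 CPM in sh-control and 1.74 to 2.22 CPM in sh-*RREB1*. The part of these differences in the levels of the network genes was not tested.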

How the data were processed

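RNA was sequenced from HEK293T cells with a stranded total RNA kit. According to the labels and the methods of the study, the authors aligned the reads with STAR to hg38 and deposited raw counts of reads per gene for each library, without normalization. Sense-strand counts were used. The merged table held the same counts for all 24635 identifiers compared, after 2981 rows with a missing count were left out. Its sh-*RREB1* columns could not be matched to replicate numbers, so their counts were compared per gene in any order. Rows for reads on no gene or several genes entered neither library sizes nor tests. Reads on no gene numbered 18.8% to 32.3% of all reads of a library, with unmapped and multimapping reads in that total. The 18.8% was that of sh-*RREB1* replicate 3, where 52.1% of aligned reads mapped to several positions.

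Identifiers that share a symbol were reduced to the one with the most reads (55767 symbols), and genes with fewer than 10 reads in total were dropped. edgeR 4.0.16 in R 4.3.3 was used for the quasi-likelihood test, with TMM scaling, condition as the only term and Benjamini-Hochberg adjustment over 23304 genes. Calls required a log2 fold change beyond 1 in size and an adjusted p under 0.01. DESeq2 1.42.0 was an alternative. GC content, exonic length and coordinates came from Gencode on GRCh38, and the GC-corrected fit removed natural splines (5 degrees of freedom) of each library as an offset. A true effect that tracks GC content would be lost with them. Log2 CPM carry a prior count of 0.5. The fits were tested on simulated data.

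Named genes are the 10 members, *RREB1*, *MXD1*, *MLXIP*, *MLXIPL*, at most 3 passing genes per direction and list, and the 5 genes most like *MYC*. 1 gene that this rule names is not reported here. *CCND2*, *TXNIP*, *ARRDC4*, *TFE3*, *TFDP1*, *RING1*, *CDKN1B*, *CDKN1C*, *NDRG2*, *GADD45B*, *PVT1* and *COL1A2* were singled out after their values were seen. The members and lists were chosen with earlier results of these data known. Other alternatives were other scalings, filters, strand, table and identifiers, the replicate number as a block, and each library left out. Libraries of a group were not duplicates (chi-square per degree of freedom of at least 5.17 between any pair). With 12257054 to 33044061 reads on genes and 3 libraries a group, changes in genes with few reads, such as *MYCN*, could not be resolved.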

Additional observations from a re-analysis of the deposited data

How the results depend on the processing

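*MYC* kept its direction and an adjusted p below 0.05 in all 23 alternatives, with a log2 fold change of 0.81 to 1.12, and *MNT* passed in 18 of 23, *MAX* in 16, *MXD4* in 11 and *MXD3* in 8. Of the members, 2 were called (*MYC* and *MNT*), 3 (with *MXD4*) with DESeq2, a minimum of 1 read or an adjusted p below 0.05 with the same fold minimum, 1 with upper-quartile scaling (*MNT*) and 0 with the GC correction, and 0 to 2 when 1 library was left out (2 without sh-control replicate 1 and 0 without any other library). At an adjusted p below 0.05 it was 4 members, and 2 to 4 when 1 library was left out (2 without sh-control replicate 2 or any library labelled sh-*RREB1*). The members' median log2 fold change of 0.33 was 0.24 with upper-quartile scaling, 0.56 with filterByExpr, which drops *MYCN*, 0.10 with the GC correction, 0.20 to 0.36 when 1 library was left out, and 0.058 to 0.13 when 1 was left out with the GC correction. Genes called over the whole table numbered 794, compared to 1647 with DESeq2, 1801 with a minimum of 1 read and 2032 at an adjusted p below 0.05 with the same fold minimum. When 1 library was left out they numbered 8 to 1117, with 9 without sh-control replicate 2, 383 without sh-control replicate 3, and 25, 136 and 8 without sh-*RREB1* replicates 1, 2 and 3. Of the calls 79.5% were higher, and 60.2% with the GC correction. Of the listed genes 13 were called, 22 with a minimum of 1 read, 5 with the GC correction and 1 to 12 when 1 library was left out. The cause of these changes was not tested.

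With the replicate block, 1684 genes, 3 members and 21 listed genes were called, and together with the GC correction 0 members and 5 listed genes, with a members' median of 0.10. Deviations of same-numbered libraries correlated at 0.50, 0.43 and -0.28 over genes, so the numbers were not taken to pair the libraries. Signs changed only under settings with the GC correction. *MLX* was at -0.091 with it, -0.091 with the replicate block added, and -0.13 to -0.058 when 1 library was left out with it, compared to 0.039 to 0.25 when 1 was left out without it. In the same 4 settings *MLXIPL* was at -0.39, -0.35, -0.52 to -0.23 and 0.33 to 0.86, and *CEBPA* at -0.13, -0.11, -0.28 to -0.037 and 0.99 to 1.54. *HCFC1* was at -0.010 with the replicate block and the correction, at -0.10 to 0.10 when 1 library was left out with the correction, and at 0.84 to 1.14 when 1 was left out without it. Over all named genes and alternatives, 787 values kept direction and side of the threshold, 133 lost significance, 16 gained it and 28 changed sign.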
